A study of Mus musculus with 14 samples.

Results

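Mitochondrial ribosomal proteins were followed across 2 muscles and 2 genotypes of the mouse. The genes were those whose symbol on the array is Mrpl or Mrps followed by a number, which gave 76 genes of 24559 named genes on the array. Mrps6 matched as well and was left out, because it lies in the chromosome 16 segment that Ts1Cje mice carry in an extra copy. All 76 were well above background on each of the 14 arrays, so the filter on dim probes removed none, and 14170 genes were tested in all. By known structure, 50 of them belong to the large subunit and 25 to the small subunit. The remaining gene, Mrps36, has a ribosomal name but encodes a subunit of the 2-oxoglutarate dehydrogenase complex.

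RNA came from the extensor digitorum longus (EDL), which is made mostly of fast-twitch fibres, and from the soleus (SO), which is rich in slow-twitch fibres. Both were taken from Ts1Cje mice, a model of Down syndrome in which the distal part of chromosome 16 is present in an additional copy, and from disomic littermates (WT), all on the C57BL/6 background, with ages not given in the sources used here. Each sample was hybridised to a 1-colour Agilent array, with 3 arrays for each genotype in the EDL and 4 for each genotype in the soleus. Whole muscle was measured, so fewer cells of a type and less RNA per cell cannot be told apart. The p-values measure the spread between these samples.

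Mitochondrial ribosomes translate the few proteins encoded by mitochondrial DNA, which are core subunits of the respiratory chain and of ATP synthase. Their RNA parts come from mitochondrial DNA, whereas every one of their proteins is encoded in the nucleus, made in the cytosol and imported. Compared with bacterial ribosomes they have lost RNA and gained proteins, so that many members have no bacterial homologue, and the ribosome is tethered to the inner membrane where its products are inserted. Slow-twitch fibres depend more on oxidative metabolism than fast-twitch fibres.

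Levels are given as log2 of the signal over the 75th percentile of the signals on the same array, and differences are log2 differences between group means. A gene was called at a Benjamini-Hochberg adjusted p under 0.05 in limma, fitted to all genes, and the words rose and fell are kept for called genes. Between 41.3% and 52.9% of the probes on an array were well above background and 0 probes were saturated. Array number limits the precision: the median standard error (SE) of a member's muscle difference was 0.11. Correlations between arrays of the same group were between 0.970 and 0.984 across genes. The 6 EDL arrays and replicate 1 of soleus Ts1Cje shared 1 slide, and the other 7 soleus arrays were on a second slide. Muscle and slide are therefore nearly the same split, and the muscle counts are also given with slide in the fit. The labelled muscles carried their markers: 9 of 10 fast fibre genes were called higher in the EDL in each genotype, and 9 of 9 slow fibre genes were called lower, with medians of 1.60 and -5.18 in WT and of 1.85 and -6.01 in Ts1Cje.

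Sequence upstream of the members was examined first, because coordinated nuclear genes for mitochondrial proteins are known for binding sites of NRF1, GABPA (NRF2) and YY1. RefSeq windows (GRCm38.p6) of 250 bases before to 50 bases after the start were found for 67 of the 76 genes, using the first window listed for a gene. The letters searched on both strands were GCGCANGCG for NRF1, CCGGAAG for GABPA and AAGATGGCG for YY1. No member had matches of different motifs that overlapped. At least 1 of the 3 was present in 40 of 67 member windows (59.7%), in 28.2% of the windows of all genes tested and in 15.3% of all 27025 windows. GABPA letters stood in 35.8% of member windows against 16.5% of tested genes and 9.12% of all windows, NRF1 letters in 23.9% against 12.4% and 6.47%, and YY1 letters in 11.9% against 2.95% and 1.49%. A match describes letters and shows no binding.

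The letters were counted by muscle call as well. Of the 19 with a window that were called in at least 1 muscle comparison, 11 held a match, and of the 48 called in neither, 29 did. The bases just before the start are shown for 5 called members, to set each kind of match beside the member with the largest difference, Mrpl41, whose window held none. Matches are in capitals, and each run is the 120 bases 5′ of the start, read on the strand of the gene. In GRCm38.p6, which is not the mm9 build of the probe positions, these are chr11:58171544-58171663 (plus strand) for Mrpl22, with GABPA and NRF1 letters, chr13:73330889-73331008 (plus) for Mrpl36, with YY1 letters in reverse, chr9:98601680-98601799 (minus) for Mrps22 and chr19:45006443-45006562 (minus) for Mrpl43, with GABPA letters, and chr2:24975099-24975218 (minus) for Mrpl41.
Mrpl22: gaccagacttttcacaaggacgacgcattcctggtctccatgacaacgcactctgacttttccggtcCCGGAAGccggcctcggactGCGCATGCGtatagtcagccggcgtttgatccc
Mrpl36: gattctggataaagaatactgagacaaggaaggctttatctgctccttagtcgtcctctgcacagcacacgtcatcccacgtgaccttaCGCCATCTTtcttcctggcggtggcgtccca
Mrps22: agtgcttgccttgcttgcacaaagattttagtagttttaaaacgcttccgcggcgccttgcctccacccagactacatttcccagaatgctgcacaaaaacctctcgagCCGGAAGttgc
Mrpl43: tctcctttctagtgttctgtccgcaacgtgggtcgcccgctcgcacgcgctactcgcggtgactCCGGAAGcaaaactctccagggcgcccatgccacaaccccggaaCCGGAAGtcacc
Mrpl41: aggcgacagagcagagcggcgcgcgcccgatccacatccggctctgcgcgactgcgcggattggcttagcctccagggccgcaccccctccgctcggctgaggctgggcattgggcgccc

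The first question was how these genes differ between a fast and a slow muscle. In WT mice, 59 of 76 genes had a higher mean in the EDL than in the soleus, with a median difference of 0.15, against 0.07 over all genes tested; under quantile normalization the median was -0.02, with 35 means higher. The test called 17 of them: 16 rose in the EDL and 1, Mrps35, fell. This is 22.4% of the members, against 29.8% of all genes tested (20.0% higher and 9.77% lower). No member differed by more than 1 on the log2 scale, whereas 8.69% of all genes did, and the members' differences ran from -0.42 to 0.57.

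The member with the largest WT difference was Mrpl23, a protein at the exit of the tunnel through which the new chain leaves the large subunit. Its level was 5.71, 5.79 and 5.64 in EDL WT and 5.02, 5.30, 5.23 and 5.02 in soleus WT. Each EDL array was above each soleus array, and the difference was 0.57 (SE 0.11, adjusted p = 0.00195). Mrps18b, in the small subunit, stood at 5.002, 5.04 and 4.94 in EDL WT and at 4.25, 4.68, 4.43 and 4.51 in soleus WT, a rise of 0.53 (SE 0.11, adjusted p = 0.00419). Mrps28, of the small subunit, rose by 0.50 (SE 0.12, adjusted p = 0.00645), and Mrpl50, of the large subunit without a bacterial homologue, by 0.50 (SE 0.11, adjusted p = 0.00386).

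Those 4 genes did not overlap between the muscles on any WT array. The same held for members that were not called, such as Mrpl24, Mrpl44 and Mrpl53. The next by size were Mrps21 (0.49), Mrpl36 (0.46), Mrpl42 (0.46) and Mrps22 (0.45), with adjusted p between 0.00444 and 0.015. Mrpl22, which also lies along the exit tunnel, rose by 0.43, and the other 7 called genes, Mrpl13, Mrpl16, Mrpl52, Mrps7, Mrps15, Mrps31 and Mrps36, rose by 0.30 to 0.42. With the replicate number as a block, Mrpl16, Mrps15 and Mrps36 were not called. For Mrpl50 a second probe gave a difference of 0.09 and the mean over its probes was not called, so its rise rests on 1 probe.

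Mrps35, a small-subunit protein without a bacterial homologue, went the other way. Its levels in EDL WT were 1.70, 1.59 and 1.70, and in soleus WT they were 2.06, 1.999, 2.08 and 2.22. All EDL arrays were below all soleus arrays, and the gene fell in the EDL by 0.42 (SE 0.09, adjusted p = 0.00473), which is 1.34-fold. Its array probe maps to chr6:147009999-147019119 on the plus strand in mm9. It was called in each of 16 alternative fits, with differences from -0.59 to -0.38 and adjusted p from 0.000836 to 0.0433.

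**Figure D1:**
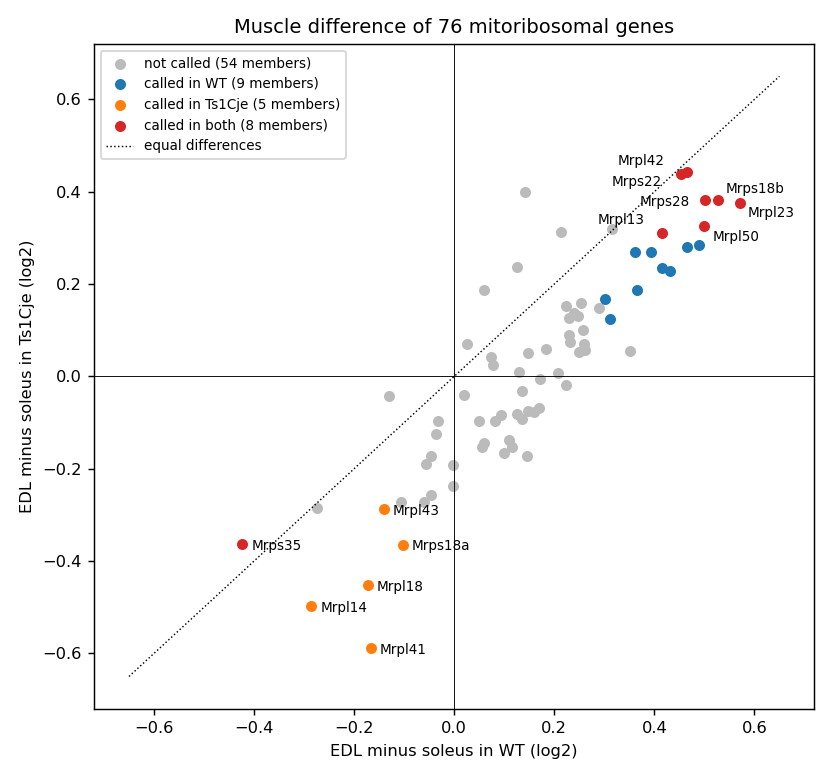
Each point is 1 of the 76 members, including Mrps36, which is not ribosomal. The log2 difference of EDL minus soleus is on the horizontal axis for WT and on the vertical axis for Ts1Cje. The dotted line marks equal differences. Of the 8 members called in both genotypes, 7 lie above 0 and Mrps35 lies below 0 on both axes, while Mrpl41 has the lowest Ts1Cje value, -0.59.

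In Ts1Cje mice the direction was split. The test called 13 members (17.1%, against 29.9% of all genes tested): 7 rose in the EDL (17.5% of all genes did) and 6 fell (12.4%). The median difference was 0.03, against 0.01 over all genes, and 41 of 76 means were higher in the EDL; the median was -0.07 under quantile normalization and -0.14 under normexp background correction. All 7 that rose had also risen in WT, namely Mrpl13, Mrpl23, Mrpl42, Mrpl50, Mrps18b, Mrps22 and Mrps28, and Mrps35 fell in both. These 8 are 47.1% of the WT calls and 61.5% of the Ts1Cje calls, whereas over all genes 71.4% and 71.1% of the calls were shared. Of all genes tested, 21.3% were called in the same direction in both.

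The 2 muscle comparisons use different arrays on the same slides. Across the 76 genes their differences had a Pearson correlation of 0.87 and a Spearman correlation of 0.87 (0.89, Pearson, across all genes), which is a description across genes and not across replicates. The largest rises in Ts1Cje were those of Mrpl42 and Mrps22. Mrpl42, a protein without a bacterial homologue, stood at 4.33, 4.31 and 4.36 in EDL Ts1Cje and at 3.96, 3.79, 3.78 and 4.01 in soleus Ts1Cje, a rise of 0.44 (SE 0.12, adjusted p = 0.0127) beside 0.46 in WT. Mrps22 stood at 2.23, 2.13 and 2.24 against 1.89, 1.70, 1.76 and 1.69, a rise of 0.44 (SE 0.10, adjusted p = 0.00654). In both genotypes the EDL and soleus arrays of these 2 genes did not overlap. The same held for Mrpl15, which was called in neither genotype. The other 5 rose by 0.31 (Mrpl13) to 0.38 (Mrps18b, Mrps28 and Mrpl23).

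**Figure D2:**
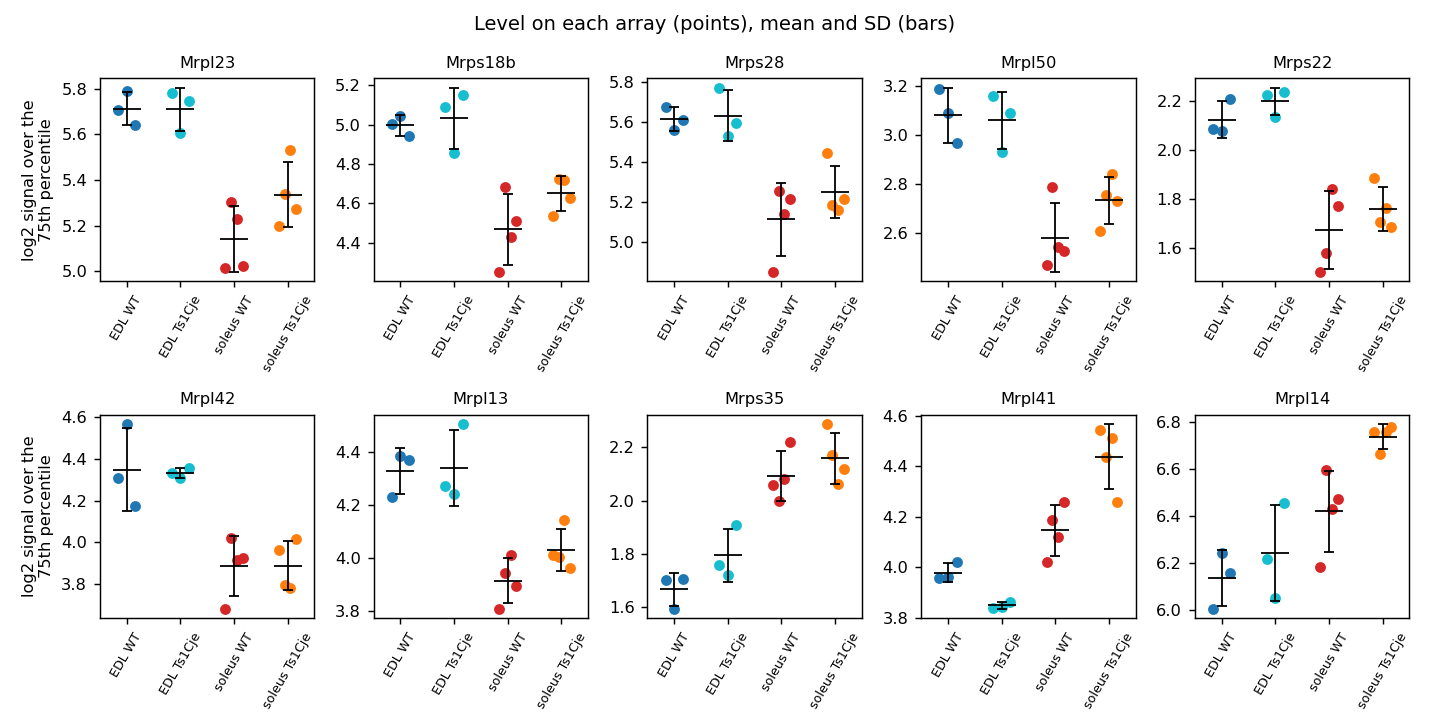
Each panel shows 1 gene, with the log2 signal over the 75th percentile on each array as points by group and the group mean and SD as black bars (3 arrays for each EDL group and 4 for each soleus group). The first 7 genes are higher in the EDL in both genotypes, Mrps35 is lower in the EDL, and Mrpl41 and Mrpl14 are highest in soleus Ts1Cje.

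Among the members that fell in the EDL of Ts1Cje mice, Mrpl41 changed most. It encodes a large-subunit protein without a bacterial homologue, and its probe lies at chr2:24829696-24829755 on the minus strand (mm9). EDL Ts1Cje arrays read 3.84, 3.84 and 3.86, and soleus Ts1Cje arrays read 4.54, 4.44, 4.51 and 4.26. Each EDL array was lower, and the gene fell by 0.59 (SE 0.09, adjusted p = 0.000535), a 1.5-fold difference. It was called in each of 17 alternative fits, with differences from -0.72 to -0.38 and adjusted p from 9.39e-05 to 0.0456, and its second probe gave -0.18. Among these fits, the slide block and slide 1 alone rest on the same estimate.

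In WT the same gene read 3.96, 3.96 and 4.02 in the EDL and 4.02, 4.19, 4.12 and 4.26 in the soleus, a difference of -0.17 (adjusted p = 0.203) that was not called. The other 4 members called lower in Ts1Cje and not in WT were Mrpl14 (-0.50 in Ts1Cje and -0.29 in WT), Mrpl18 (-0.45 and -0.17), Mrps18a (-0.36 and -0.10) and Mrpl43 (-0.29 and -0.14). Mrpl14 lies at the interface with the small subunit and Mrpl18 in the central protuberance, while Mrps18a carries a small-subunit name but sits in the large subunit. That the muscle difference itself changed with genotype was not shown for any of the 5: the adjusted p of the difference between genotypes was 0.987 for each, with Mrpl41 at -0.42 (SE 0.13).

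Few of these calls held when slide entered the fit. Only soleus Ts1Cje has arrays on both slides, so the slide term rests on its replicate 1 against its other arrays. With slide as a block, 2 members rose (Mrpl23 and Mrpl50) and 1 fell (Mrps35) in WT, with a median of 0.14, and 0 rose and 2 fell (Mrpl41 and Mrps35) in Ts1Cje, with a median of 0.02. The block lowered the calls over all genes as well, to 6.96% higher and 2.72% lower in WT and to 8.91% and 5.72% in Ts1Cje. No slide holds both WT muscles. Within the first slide, where soleus Ts1Cje is 1 array assumed to vary like the other groups, 0 members rose and 1, Mrpl41, fell in Ts1Cje, by 0.69 (adjusted p = 0.0433), beside 4.59% and 2.20% of all genes. The direction split also moved with the scaling: quantile normalization gave 7 higher and 9 lower in WT and 2 higher and 15 lower in Ts1Cje, and normexp background correction gave 0 and 1, and 0 and 7. Over all genes, quantile normalization called 15.1% higher and 11.1% lower in WT and 14.6% and 14.5% in Ts1Cje, and normexp 10.6% and 5.58%, and 10.6% and 10.2%.

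Single arrays moved the counts too. Without EDL WT replicate 2, 9 members rose in WT, and without soleus WT replicate 1, 2 fell. In Ts1Cje the counts were 2 higher and 3 lower without EDL replicate 1, 3 lower without EDL replicate 2, 3 higher without EDL replicate 3, and 4 higher without soleus replicate 4. All 30 calls kept their direction in every alternative fit, and 2 of them, Mrps35 in WT and Mrpl41 in Ts1Cje, were called in every one.

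**Figure D3:**
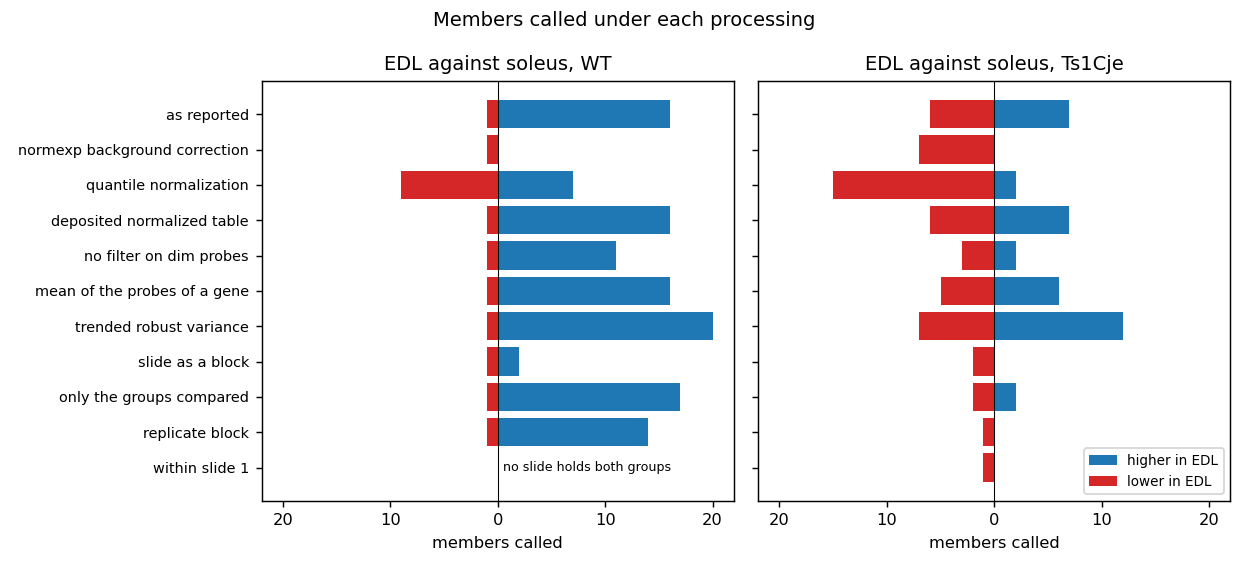
Bars give the number of the 76 members called higher (right, blue) or lower (left, red) in the EDL than in the soleus, for the reported fit and each alternative processing, in WT (left panel) and Ts1Cje (right panel). The counts of members higher in the EDL run from 0 to 20 in WT and from 0 to 12 in Ts1Cje.

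By place in the ribosome, the following counts were found. Beside them, 20.0% of all genes tested rose and 9.77% fell in WT, and 17.5% rose and 12.4% fell in Ts1Cje. Of the 5 proteins of the stalk, which recruits the translation factors, 0 were called in limma in either genotype, with medians of 0.11 in WT (-0.07 under quantile normalization and 0.02 under normexp) and -0.10 in Ts1Cje (-0.20 and -0.24). Mrpl12, which forms the flexible stalk itself, differed by -0.0016 (WT, adjusted p = 0.992) and -0.19 (Ts1Cje, adjusted p = 0.133), Mrpl10, which anchors it, by 0.11 and -0.14, and Mrpl11 at its base by 0.13 and -0.08. At the tunnel exit, 2 of 8 members rose in WT (Mrpl22 and Mrpl23) and 1 in Ts1Cje. Mrpl45, which tethers the ribosome to the inner membrane, differed by 0.14 and -0.03, neither called.

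In the central protuberance, 0 of 8 members were called in WT and 1, Mrpl18, fell in Ts1Cje; Mrps30, a further large-subunit protein with a small-subunit name, differed by 0.06 and -0.15. Around the decoding site and the mRNA path, 1 of 4, Mrps7, rose in WT and 0 changed in Ts1Cje, and Mrps12, at the decoding centre, differed by 0.25 (adjusted p = 0.0880) and 0.16. Of the large subunit, 8 of 50 rose in WT, and in Ts1Cje 4 rose and 5 fell. Of the small subunit, 7 of 25 rose and 1 fell in WT, and 3 rose and 1 fell in Ts1Cje. The shares over all genes tested were 20.0% and 9.77% in WT, and 17.5% and 12.4% in Ts1Cje. Members with a bacterial homologue and members without one had WT medians of 0.15 and 0.17.

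The members nearest to no difference were Mrpl12, Mrpl33 and Mrpl30 in WT (-0.0016, -0.0016 and 0.02) and Mrpl24, Mrps34 and Mrps18c in Ts1Cje (-0.0056, 0.0081 and 0.0091). Mrps36, the dehydrogenase subunit, rose by 0.30 in WT (adjusted p = 0.0345, and 0.0648 with the replicate block) and was called in 2 of 9 other settings and in 2 of 7 fits without 1 array. It differed by 0.17 in Ts1Cje without a call. Of 25 members with several probes above background, the probes disagreed in sign for 6 in WT (Mrpl15, Mrpl39, Mrpl47, Mrps2, Mrps14 and Mrps33) and 9 in Ts1Cje (Mrpl4, Mrpl15, Mrpl27, Mrpl30, Mrpl47, Mrps2, Mrps26, Mrps33 and Mrps36). None of those was called in the comparison in which its probes disagreed.

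The rest of the mitochondrial translation system was described from lists of known genes. Again, 20.0% of all genes tested rose and 9.77% fell in WT, and 17.5% rose and 12.4% fell in Ts1Cje. Of 25 assembly and rRNA modification factors, 8 rose and 0 fell in WT (median 0.25) and 3 rose in Ts1Cje (0.14), led by Malsu1, which joins the large subunit late in assembly, at 0.68 and 0.72. Of 17 aminoacyl-tRNA synthetases of mitochondria, 5 rose and 1 fell in WT (0.31) and 2 rose and 1 fell in Ts1Cje (0.11). Under quantile normalization the medians of the assembly factors were 0.15 and 0.04 and those of the synthetases 0.14 and 0.03, and under normexp they were 0.15 and 0.03, and 0.15 and 0.02. Gars, shared with the cytosol, rose by 0.52 and 0.47, and Hars2 fell by 0.53 and 0.72. Of 16 translation factors, 4 rose in WT, and 2 rose and 2 fell in Ts1Cje, with the release factor gene Mtrf1 rising by 0.52 and 0.57 and the elongation factor gene Tsfm at -0.55 (called) in Ts1Cje and -0.22 (not called) in WT.

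Mitoribosomal proteins under other names numbered 6, of which Chchd1 rose in both genotypes (0.44 and 0.30) and Gadd45gip1 fell in Ts1Cje (-0.34). Among 10 genes of mitochondrial DNA transcription and maintenance, the polymerase Polrmt rose by 0.47 and 0.32. The transcripts that this ribosome translates were measured too. All 13 mitochondrially encoded mRNAs had a higher mean in the EDL, with 2 called in WT (median 0.25) and 7 in Ts1Cje (0.52), whereas the medians were -0.18 and -0.06 under quantile normalization and 0.12 and 0.34 under normexp. Of 75 nuclear respiratory chain subunits, 7 rose and 1 fell in WT (median 0.12) and 5 rose and 2 fell in Ts1Cje (-0.02), with Ndufs7 of complex I at 0.53 and 0.48 and Ndufb3 at -0.37 and -0.57. The subunits' medians were -0.15 and -0.25 under quantile normalization and -0.0033 and -0.20 under normexp.

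Cytosolic ribosomal proteins had a WT median of 0.12 with 4 of 76 called higher, and a Ts1Cje median of 0.05 with 3; these medians were -0.09 and -0.12 under quantile normalization and -0.0040 and -0.14 under normexp. Of 12 regulators of nuclear genes for mitochondria, 0 rose, and 2 fell in WT and 4 in Ts1Cje. The oestrogen-related receptors Esrrb and Esrrg had the largest falls, by 2.06 and 2.12 in WT and by 2.36 and 2.33 in Ts1Cje. Markers of other cells moved between the muscles as well. Of 5 measured adipocyte markers (1 more, Lep, was not well above background), 1 fell in WT and 5 in Ts1Cje, and their summed signal over the 75th percentile ran from 5.89 to 48.5 in EDL WT, 5.22 to 12.9 in EDL Ts1Cje, 16.9 to 78.7 in soleus WT and 34.2 to 94.8 in soleus Ts1Cje. Of 7 measured macrophage markers (Cd163 was not well above background), 3 fell in WT and 2 in Ts1Cje, with summed signals of 15.0 to 17.6, 19.5 to 21.4, 21.5 to 24.8 and 23.3 to 32.9 in the same order. Their part in the members' differences was not tested.

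The second question was whether these genes differ between Ts1Cje and WT mice. In the EDL, 0 of 76 members were called between Ts1Cje and WT in limma, against 0.00706% of all genes (1 gene), and 0 had an unadjusted p under 0.05. The median difference was -0.0050, with 35 means higher in Ts1Cje and members from -0.17 to 0.14. The groups did not overlap for 2 members with a higher level in Ts1Cje, against 2.84% of all genes, and for 2 with a lower level, against 2.77%. The smallest p-values belonged to Mrpl3 (-0.17), Mrpl40 (0.14), Mrpl41 (-0.13), Mrps35 (0.13) and Mrps2 (-0.17), each with adjusted p = 0.99997.

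In the soleus, again 0 members were called, against 0.247% of all genes (35 genes), but the values lay mostly on one side. Of the 76 members, 67 had a higher mean in Ts1Cje (58 under quantile normalization), with a median difference of 0.14 against 0.07 over all genes, and differences from -0.17 to 0.37. At an unadjusted p under 0.05 there were 17 members (22.4%), against 13.6% of all genes. For 17 members every Ts1Cje array was above every WT array, against 6.12% of all genes, and for 0 every Ts1Cje array was below, against 2.28%.

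Mrpl41 had the smallest p in the soleus. Its Ts1Cje arrays read 4.54, 4.44, 4.51 and 4.26 and its WT arrays 4.02, 4.19, 4.12 and 4.26, so that the groups met at 4.26 without overlapping, and the difference was 0.29 (SE 0.09, adjusted p = 0.265). Its second probe gave -0.24, and the mean over both probes differed by 0.03. Mrpl53, beside the stalk, read 5.13, 5.29, 5.24 and 5.05 in Ts1Cje and 4.93, 4.94, 4.89 and 4.85 in WT, a difference of 0.27 (SE 0.09, adjusted p = 0.276). Mrpl21 (0.27), Mrpl14 (0.32) and Mrpl48 (0.28), all of the large subunit, had adjusted p of 0.276, 0.291 and 0.296.

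By place, the soleus medians were 0.24 for the central protuberance, 0.20 for the stalk, 0.15 for the tunnel exit, 0.15 for the decoding site and mRNA path and 0.11 for the 50 members elsewhere. On the probe that represented it, every member at the 4 named sites had a higher mean in Ts1Cje soleus, also under quantile normalization and normexp. A second probe of Mrpl39 gave -0.27, and other probes of Mrpl47 gave -0.16, -0.08 and 0.10. Over all members, probes disagreed in sign in this comparison for 7: Mrpl15, Mrpl39, Mrpl41, Mrpl47, Mrps2, Mrps23 and Mrps33. Under quantile normalization the medians were smaller, at 0.17, 0.12, 0.08, 0.09 and 0.04 in the same order. The large subunit had 45 of 50 higher and the small subunit 21 of 25. These are counts over genes measured on the same 8 arrays and not replicates of the condition.

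**Figure D4:**
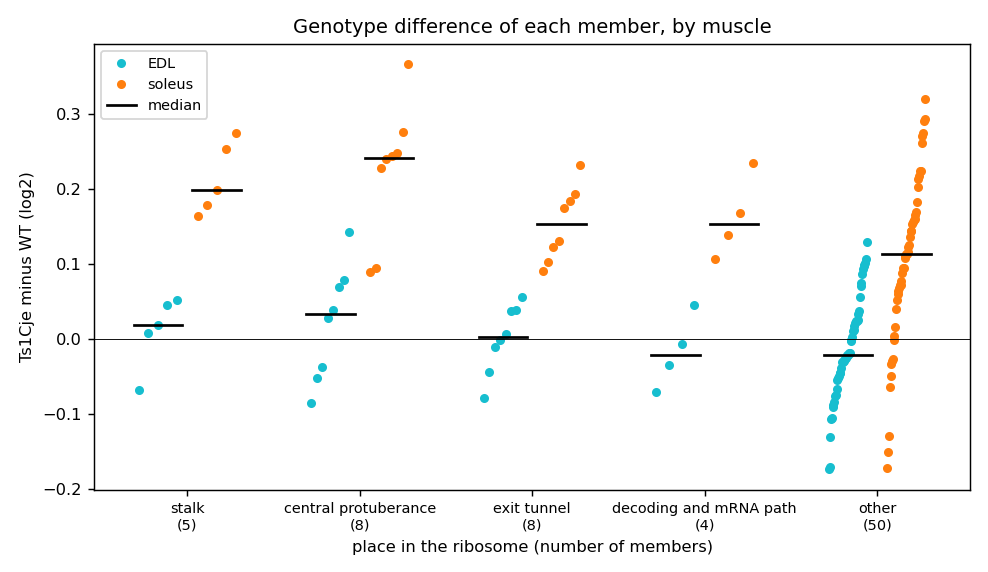
Each point is the log2 difference of Ts1Cje minus WT of 1 member in the EDL (cyan) or the soleus (orange), ordered by value within each place in the ribosome, with medians as black lines; Mrps36 is not drawn. The soleus medians lie between 0.11 and 0.24 and the EDL medians between -0.02 and 0.03, and 0 of the points were called.

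Gene sets outside the mitochondrial ribosome were set beside the soleus values. Of 75 nuclear respiratory chain subunits 68 had a higher mean in Ts1Cje (median 0.12), and 1, Atp5o, rose, by 0.65 (adjusted p = 0.022). Atp5o, like Mrps6, lies in the segment of chromosome 16 that Ts1Cje mice carry in an extra copy. Of 76 cytosolic ribosomal proteins 70 were higher in mean (0.11), with 0 called, while 0 of 13 mitochondrially encoded transcripts were (-0.24). The 3 medians kept their sign under both other scalings, but under quantile normalization 55 of the respiratory subunits and 53 of the cytosolic ribosomal proteins were higher, with medians of 0.07 and 0.04. The median level of the members was 3.73, 3.96, 3.89 and 3.89 on the soleus WT arrays. On the soleus Ts1Cje arrays it was 3.94, 3.98, 4.01 and 4.02. It was 4.08, 4.06 and 4.06 in EDL WT and 4.00, 3.88 and 4.16 in EDL Ts1Cje. Soleus WT replicate 1 was the lowest of all; without it the median difference in the soleus was 0.10, and within the second slide it was 0.13.

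**Figure D5:**
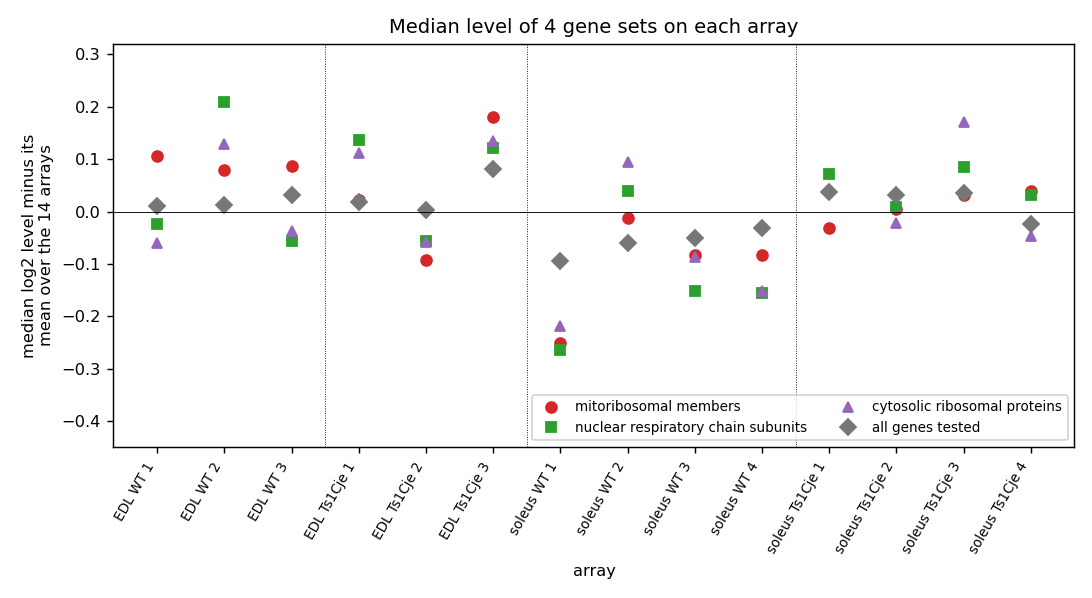
For each of the 14 arrays, points give the median log2 level of a gene set minus that set's mean over the arrays, for the mitoribosomal members, the nuclear respiratory chain subunits, the cytosolic ribosomal proteins and all genes tested, with dotted lines between groups. Soleus WT replicate 1 is lowest for all 4 sets, with the mitoribosomal median at 3.73.

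Marker genes were set beside the soleus genotype values. Of 10 fast fibre genes 3 were called lower in Ts1Cje: Pvalb at -1.86, Myh4 at -4.12 and Actn3 at -1.95. All 9 slow fibre genes had a higher mean without a call. The summed signal of the fast fibre genes ran from 7507 to 8795 in soleus WT and from 6206 to 8029 in soleus Ts1Cje, and that of the slow fibre genes from 6236 to 7733 and from 6783 to 9652. Median levels of the fast fibre genes did not overlap, at 8.35 to 9.08 in soleus WT and 6.46 to 6.97 in soleus Ts1Cje. Those of the slow fibre genes did, at 7.98 to 8.54 and 8.13 to 8.66. Taken gene by gene, the median difference of the fast fibre genes was smaller than that gap. It was -0.24 under quantile normalization, with 2 of 10 higher, and -0.13 under normexp, with 1 of 10 higher. All 5 measured red blood cell markers had a higher mean in Ts1Cje soleus without a call, and their summed signal ran from 92.1 to 108 in WT and from 133 to 159 in Ts1Cje, with no overlap. Their median levels overlapped, at 2.45 to 2.83 in WT and 2.32 to 3.13 in Ts1Cje. All 7 measured macrophage markers were also higher in mean without a call, with overlapping sums of 21.5 to 24.8 and 23.3 to 32.9. Their part in the members' differences was not tested.

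Whether the genotype difference itself differed between the muscles was tested by the interaction in the same fit. None of the 76 members was called, as was none of all genes tested (0%), and 1 member, Mrpl41, had an unadjusted p under 0.05. The median difference of differences was -0.16, against -0.07 over all genes, with 8 members on the upper side. Mrpl41 was lower on every Ts1Cje array than on every WT array in the EDL and higher on every one in the soleus, an interaction of -0.42 (SE 0.13, unadjusted p = 0.00769, adjusted p = 0.987). The next by p were Mrpl21 (-0.24), Mrpl3 (-0.26), Mrps18a (-0.26) and Mrpl22 (-0.20).

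Among the members, 2 lie on chromosome 16 outside the extra segment. Mrpl39, at the tunnel exit (probe at chr16:84718547-84718606, mm9, minus strand), differed between genotypes by 0.04 in the EDL and 0.09 in the soleus. Its second probe gave 0.13 and -0.27. Mrpl40, in the central protuberance (chr16:18872311-18872370, minus strand), differed by 0.14 and 0.24 (adjusted p = 0.99997 and 0.318), with groups that did not overlap in either muscle. Inside the segment, Mrps6 (chr16:92112223-92112282, plus strand) stood at 2.94 ± 0.27 in EDL WT, 3.57 ± 0.13 in EDL Ts1Cje, 3.04 ± 0.18 in soleus WT and 3.73 ± 0.18 in soleus Ts1Cje (SD, n = 3 and 4). It differed by 0.63 (SE 0.16) and 0.69 (SE 0.14), more than any member, with adjusted p of 0.718 and 0.0839 in limma's test over all genes.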

How the data were processed

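RNA of 14 muscles was measured on 1-colour Agilent arrays, from 25 ng of RNA per sample labelled with Cy3, per the labels' protocols. Scanner files as deposited give the processed signal, a background-subtracted intensity not scaled between arrays, and the median intensity of spot and background, from Feature Extraction 11.5.1.1 per the file headers (9.1 per the submitters' processing notes). The authors' deposited tables hold the same intensity and log2 values scaled to the 75th percentile. For the latter, the lowest correlation with the values computed here was 0.9999. It was taken after each probe's median over the arrays was subtracted from the computed values. Other columns of 0 and 1 in the deposited files mark saturated, outlier and well-above-background spots.

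Outlier spots were left out, spots of 1 probe averaged, and log2 intensity minus the 75th percentile of each array taken over 55681 probes. A probe was kept if all arrays of 1 or more groups had it well above background (18516 probes), and the one of highest mean signal represented a gene. Probes were named through RefSeq where matched (31796 of 33822 probes), which changed the symbol of 2138 probes. The members kept their symbols from the array. With R 4.3.3, limma 3.58.1 fitted 4 group means to all arrays with 10 residual degrees of freedom, two-sided, with Benjamini-Hochberg adjustment over 14170 genes. The fit was tested on simulated data. The normexp alternative was planned on the mean spot signal and was run on the median spot signal, a change made after the columns of the scanner files were read, since they give the median and not the mean; other alternatives were quantile normalization, the deposited log2 table, no filter, the mean of probes, a trended robust variance, slide or replicate as a block, the groups compared alone, within slide, and leaving out each array.

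Samples with the same replicate number deviated together in the EDL genotypes (correlations 0.40, 0.12 and 0.32) and in the 2 WT muscles (0.50, 0.41 and 0.33), and not in the other comparisons. Between the soleus genotypes, same-number correlations ran from -0.29 to 0.0087. Those of different numbers ran from -0.17 to 0.42, the highest for WT replicate 1 with Ts1Cje replicate 2. Named genes were the 8 largest called in each direction and the 3 nearest to 0 in a muscle comparison, the 5 of smallest p in a genotype comparison, 10 genes chosen for their place or name, and members whose probes disagreed; that only Mrpl39 and Mrpl40 of the 10 are also given by genotype was decided after their values were seen. The members and lists were chosen with earlier results of these data known.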

Additional observations from a re-analysis of the deposited data

Results flagged for a closer look

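Within soleus groups, 72 sets of 4 arrays were examined for a value far from the others, and 2 had one, where chance gives about 5%. Mrps12 read 4.38 in soleus WT replicate 4, against 4.19 to 4.204 on the other 3 arrays. Mrps18a read 5.02 in soleus Ts1Cje replicate 2, against 4.72 to 4.75 on the others. Without that array its fall in the EDL of Ts1Cje was not called. The call was also lost without EDL Ts1Cje replicate 1 or replicate 2, and was kept in 5 of 10 other settings.

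The genotype difference of Mrpl41 ran in opposite directions in the muscles on every array, lower in Ts1Cje in the EDL and higher in the soleus, and the difference between them was -0.42 (limma adjusted p = 0.987, and 0.702 to 0.9999 over 22 alternative fits). A second probe of Mrpl41 was lower in Ts1Cje in both muscles, at -0.34 in the EDL and -0.24 in the soleus.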

How the results depend on the processing

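In the genotype comparisons and their difference, 0 members were called in every alternative fit, and the soleus median lay between 0.07 and 0.16. All 30 muscle calls kept their direction throughout, but 23 were lost under normexp, 14 under quantile normalization and 25 with slide as a block, and 15 held without each array in turn. The slide block rests on soleus Ts1Cje replicate 1, the only soleus array on the first slide. The causes were not tested. Few arrays and 2 slides that nearly match the muscles limit what these data separate.

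Members called higher in WT numbered 0 under normexp (median 0.044), 7 under quantile normalization (with 9 lower, median -0.017) and 2 with the slide block, and in Ts1Cje 0 under normexp (median -0.14), 2 under quantile normalization (15 lower, median -0.074), 2 without the filter (3 lower), 12 with the trended variance, 0 with the slide block (2 lower), 2 with the groups alone (2 lower) and 0 within slide 1 (1 lower). With the replicate block, 14 rose and 1 fell in WT (Mrpl16, Mrps15 and Mrps36 lost, Mrpl15 gained). In Ts1Cje 0 rose and 1 fell with this block. Same-number samples of the Ts1Cje muscles had correlations of -0.09, -0.16 and 0.12, which do not settle whether the numbers pair them. The replicate block changed no genotype count. Whether the numbers pair the soleus genotypes is not settled either. Leaving out 1 array gave 9 to 17 higher and 1 to 2 lower in WT, and 2 to 8 higher and 3 to 6 lower in Ts1Cje.

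Signs turned for genes that were not called. In WT, normexp gave -0.13 for Mrpl30, -0.064 for Mrps30 and -0.038 for Mrpl39. Quantile normalization gave -0.17 for Mrpl30, -0.012 for Mrpl10, -0.068 for Mrpl11, -0.066 for Mrpl45, -0.13 for Mrps30 and -0.087 for Mrpl39. The mean of probes gave -0.051 for Mrpl39 (and -0.088 for its genotype difference in the soleus), the slide block 0.016 for Mrpl33, -0.0055 for Mrps12 and 0.013 for Mrps18a, and the replicate block 0.023 for Mrpl12. In Ts1Cje, normexp gave -0.16 for Mrps34, -0.18 for Mrps18c, -0.015 for Mrps12, -0.10 for Mrpl39 and -0.0030 for Mrpl40, and quantile normalization -0.11 for Mrps34, -0.13 for Mrps18c and -0.075 for Mrpl39. The slide block and slide 1 alone give the same estimate by construction, from the EDL arrays and soleus Ts1Cje replicate 1. It was 0.078 for Mrpl24, -0.13 for Mrps34, 0.091 for Mrpl45, -0.034 for Mrps12 and -0.0011 for Mrpl39. Without 1 array, for the muscles in Ts1Cje, Mrpl11 ran from -0.18 to 0.024, Mrpl24 from -0.065 to 0.058, Mrpl39 from -0.066 to 0.12, Mrpl45 from -0.13 to 0.044, Mrps18c from -0.094 to 0.12 and Mrps34 from -0.064 to 0.053. Without 1 array, for the muscles in WT, Mrpl12 ran from -0.033 to 0.039, Mrpl30 from -0.058 to 0.12 and Mrpl33 from -0.075 to 0.090. Without 1 array, for the genotypes in the EDL, Mrpl39 ran from -0.053 to 0.13.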
